A study of Mus musculus with 14 samples.

Results

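Mitochondrial carriers of the Slc25 family were described in the livers of Apoe-deficient mice with and without dietary erythrodiol, a triterpene alcohol of olive. A gene was a member when its symbol was Slc25a followed by a number, and 46 of the 17552 genes in the deposited expression table met this rule. Both groups were male mice of the C57BL/6 strain, aged 8 weeks per the labels, that lacked Apoe and ate a Western diet. The control group received that diet alone and the erythrodiol group received it with erythrodiol at 10 mg/kg. The labels give 8 weeks of feeding and the methods of the study a longer period. Liver polyA RNA was sequenced in 7 libraries per group, each made from RNA pooled over several mice, so that no library stands for a single animal. Because all animals lacked Apoe, nothing here shows how the carriers would respond in wild-type liver.

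For each gene the table gives 2 expected counts, the 7 control libraries added up and the 7 erythrodiol libraries added up, and no value of a single library. There was therefore no replicate error for any carrier, no test across genes was made, and "higher" or "lower" compares these 2 sums. Sums were divided by the group total, 122889032 counts in the control and 124686047 in the erythrodiol group. Each ratio has a 95% exact binomial interval that covers counting error only, without the spread between mice or pools. A level is given as counts per kilobase of transcript and per 1000000 counts of the group, with the deposited length of the gene taken as transcript length in bases, which the sources used here do not define. No gene-level value could be recomputed without a particular library. Control libraries entered their sum with unequal weight, from 34856340 to 55244294 clean reads, compared with 47669656 to 48058606 in the erythrodiol group. The standard deviations were 7188851 and 172644 clean reads, a difference in spread that was not tested. Mean clean reads were 46764802 and 47887995 (exact permutation test of means, two-sided p = 0.700). The control library of replicate 3 had 64.33% of its reads mapped to genes, below the 74.39% to 81.43% of the other controls and the 72.96% to 76.13% of the erythrodiol libraries. The percent mapped to 1 gene was 51.36%, 52.68% and 54.17% in control replicates 1, 3 and 4. It was 60.85% to 67.12% in the other controls and 57.85% to 65.32% in the erythrodiol libraries, and this measure was not tested.

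Carriers of this family span the inner mitochondrial membrane and move solutes between the matrix and the cytosol, in many cases by exchange. Through them pass the phosphate and adenine nucleotides of oxidative phosphorylation, the citrate used for fatty acid synthesis, the acylcarnitines of fatty acid oxidation, the ornithine and aspartate of the urea cycle, and cofactors such as glutathione, coenzyme A and NAD. A few members reside in the peroxisome or the outer mitochondrial membrane. Hepatocytes use all these routes, and hepatocyte markers were abundant in both groups: the 6 markers examined held 10.8% of all counts in the control and 10.9% in the erythrodiol group, with ratios from 0.962 for Alb to 1.28 for Cps1. Apoe itself, whose gene is disrupted in these mice, had 9403 and 8293 counts in control and erythrodiol groups, respectively.

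The promoters of the carriers that stand at the ends of the later comparison are shown first. They belong to the 3 highest and the 3 lowest carriers relative to genes of like length, among 23 members with at least 1000 counts and a single RefSeq window, and were chosen after the values were seen. Each window runs from 250 bases before to 50 bases after a transcript start, is written 5′ to 3′ on the strand of the gene, and follows RefSeq for GRCm38.p6. Capitals mark a match, on either strand, to any of 8 motifs: the E-box CACGTG, the CCAAT box CCAAT, the GC box GGGCGG, the TATA box TATAAA, the cyclic AMP element TGACGTCA, the NRF1 motif (GCGC, any 2 bases, GCGC), the estrogen-related receptor element TCAAGGTCA and the sterol element TCACNCCAC. The windows lie at chr14:75786988-75787287 for Slc25a30, chr16:17928170-17928469 for Slc25a1, chr11:102407468-102407767 for Slc25a39, chr8:46211013-46211312 for Slc25a4, chr15:81360716-81361015 for Slc25a17 and chr9:97110992-97111291 for Slc25a36, all on the minus strand.
Slc25a30: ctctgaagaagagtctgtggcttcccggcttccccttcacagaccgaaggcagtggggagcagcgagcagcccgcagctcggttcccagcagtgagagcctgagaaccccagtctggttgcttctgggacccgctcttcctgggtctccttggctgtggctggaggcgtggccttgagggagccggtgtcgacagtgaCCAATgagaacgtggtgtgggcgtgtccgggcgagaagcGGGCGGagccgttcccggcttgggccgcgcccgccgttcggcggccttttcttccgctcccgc
Slc25a1: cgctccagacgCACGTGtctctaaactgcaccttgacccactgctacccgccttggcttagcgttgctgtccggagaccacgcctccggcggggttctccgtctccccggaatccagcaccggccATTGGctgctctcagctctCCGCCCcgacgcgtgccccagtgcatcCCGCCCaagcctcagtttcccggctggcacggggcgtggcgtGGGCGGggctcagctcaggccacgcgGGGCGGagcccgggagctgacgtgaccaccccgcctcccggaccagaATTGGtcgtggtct
Slc25a39: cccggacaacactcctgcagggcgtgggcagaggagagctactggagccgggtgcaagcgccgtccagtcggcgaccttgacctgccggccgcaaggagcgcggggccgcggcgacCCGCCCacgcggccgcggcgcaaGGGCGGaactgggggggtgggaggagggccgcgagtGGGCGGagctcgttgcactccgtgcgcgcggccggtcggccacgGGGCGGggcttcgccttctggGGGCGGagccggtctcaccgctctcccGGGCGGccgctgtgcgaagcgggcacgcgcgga
Slc25a4: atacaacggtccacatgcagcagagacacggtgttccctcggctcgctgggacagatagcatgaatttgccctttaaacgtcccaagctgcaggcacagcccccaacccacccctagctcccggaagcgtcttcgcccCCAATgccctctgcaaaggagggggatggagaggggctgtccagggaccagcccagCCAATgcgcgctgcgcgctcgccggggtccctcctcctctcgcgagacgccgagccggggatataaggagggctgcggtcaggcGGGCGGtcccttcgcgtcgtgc
Slc25a17: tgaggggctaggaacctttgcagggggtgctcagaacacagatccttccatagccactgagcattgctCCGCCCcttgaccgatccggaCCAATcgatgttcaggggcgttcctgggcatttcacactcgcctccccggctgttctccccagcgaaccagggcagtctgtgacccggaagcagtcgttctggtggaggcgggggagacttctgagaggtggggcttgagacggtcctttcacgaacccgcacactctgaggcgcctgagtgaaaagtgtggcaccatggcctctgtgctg
Slc25a36: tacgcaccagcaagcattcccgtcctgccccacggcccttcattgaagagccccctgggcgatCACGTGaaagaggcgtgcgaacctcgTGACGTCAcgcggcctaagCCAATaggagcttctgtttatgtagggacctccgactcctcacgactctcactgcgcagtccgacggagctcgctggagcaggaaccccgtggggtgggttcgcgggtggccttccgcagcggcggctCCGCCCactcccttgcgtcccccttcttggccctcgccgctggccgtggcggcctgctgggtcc

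All 6 windows held a GC box, Slc25a39 with 6 matches and Slc25a1 with 4, and the other 4 windows with 1 each. A CCAAT box was found in 5 of them and not in that of Slc25a39. An E-box was present in Slc25a1 and Slc25a36, that is, in a carrier from each end, and no window of the 6 held the TATA box. RefSeq windows were at hand for 35 of the 46 members, 45 windows in all. Of these, 84.4% held a GC box against 35.7% of the 32851 windows of all genes, 48.9% against 37.4% a CCAAT box, 17.8% against 7.15% an E-box and 4.44% against 13.6% a TATA box. The cyclic AMP element occurred in 4.44% against 1.79%, the NRF1 motif in 6.67% against 6.23% and the sterol element in 2.22% against 1.24% of windows. The estrogen-related receptor element, present in 0.423% of all windows, was in 0 of the 45. Carrier windows were also richer in GC, with a median of 59.0% and 15 CpG dinucleotides compared with 52.7% and 7. The windows of all genes cover 27025 genes and were not limited to those with at least 100 counts in liver. Whether the carriers differ from such expressed genes was not tested. Several windows belong to the same gene, and these are letters in a sequence, not evidence that a factor binds.

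The family as a whole took a larger share of the liver's mRNA with erythrodiol. Its summed counts were 387055 in the control and 472901 in the erythrodiol group, or 0.315% and 0.379% of the totals, a ratio of 1.20. Of the 46 members, 41 had at least 100 counts in the groups together. Among these, 36 (87.8%) were higher and 5 (12.2%) lower with erythrodiol, where 71.2% of all 13291 genes at this minimum were higher and 28.8% lower. Past a log2 ratio of 0.32, which is a ratio of 5 to 4 and served as the limit for naming a difference, 13 members (31.7%) were higher against 24.4% of all genes, and 1 (2.44%) was lower against 8.89%. Past 1.5-fold there were 2 higher members, Slc25a27 and Slc25a30, which is 4.88% against 2.55% of all genes, and 0 lower members against 3.14%. Past 2-fold 0 members were higher and 0 lower, against 0.218% and 0.549% of all genes. The median log2 ratio was 0.23 for the carriers and 0.16 for all genes. The counting interval excluded 1 for 34 of the 41, of which 31 were higher and 3 lower. The same share over all genes was not determined, so this count does not set the carriers apart. In whole liver, fewer cells of a type and less RNA per cell cannot be told apart.

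Genes of similar size were mostly higher as well. Across the 13291 genes the log2 ratio moved with transcript length (Spearman's rho = 0.43, a description across genes, which are not independent replicates). With the genes in 5 classes of length, the median log2 ratio was -0.06 in the shortest class and 0.30 in the longest. The ratio of each carrier was therefore also set against the median of the 500 genes nearest to it in length, carriers left out. On this scale 28 carriers (68.3%) were higher and 13 (31.7%) lower, against 50.1% and 49.9% of all genes, and the median relative log2 ratio was 0.064 compared with 0.00. Past the same limit of 0.32, 4 were higher (9.76% against 6.15%), namely Slc25a27, Slc25a30, Slc25a29 and Slc25a25, and 2 lower (4.88% against 13.5%), Slc25a24 and Slc25a4. Past 1.5-fold 1 was higher (2.44% against 1.02%) and 0 lower (against 3.53%), and past 2-fold 0 were higher (against 0.158%) and 0 lower (against 0.474%). The upper quartile of all genes, a relative log2 ratio of 0.14, was exceeded by 18 carriers (43.9% against 25.0%), and 5 (12.2% against 25.0%) were below the lower quartile of -0.18. When genes were matched on GC content as well, a comparison added after seeing the data, 29 were higher (70.7% against 49.3%) and 12 lower (29.3% against 50.7%), 3 were higher past the limit (7.32% against 4.96%) and 1 lower (2.44% against 12.3%), and the median was 0.09. In all, 27 carriers were higher and 5 were lower by totals, by length and by length with GC, and 8 that were higher by totals were lower than genes of their length. The 3 scales rest on the same ratio, and these shares were not determined over all genes, so the counts describe the carriers only.

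**Figure D1:**
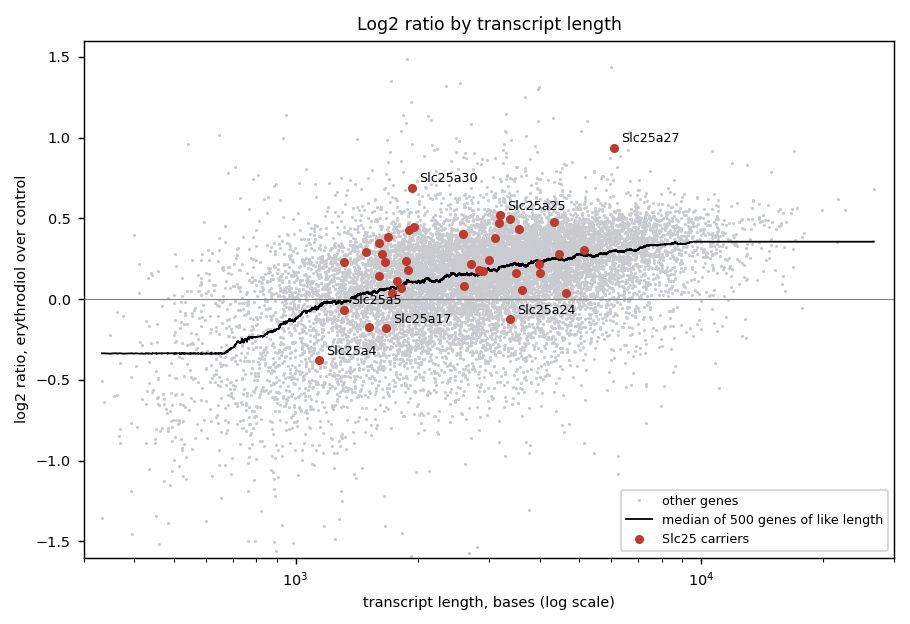
Log2 ratio of erythrodiol over control, scaled by group totals, against transcript length in bases on a log axis. Grey points are other genes with at least 100 counts (18 genes beyond 1.6 in either direction are not drawn), the black line is the median of the 500 genes of like length, and red points are 40 of the Slc25 carriers with at least 100 counts. The line climbs with length; Slc25a27 and Slc25a30 sit highest above it, and Slc25a24 and Slc25a4 lie farthest below it.

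Per length, 4 carriers had a level above 100 in control livers and 6 did so with erythrodiol. The same share and the median level were not determined over all genes, of which 71.2% were higher by totals. In the control group the order of levels was Slc25a5 (level 239), Slc25a47 (233), Slc25a39 (181) and Slc25a3 (134). With erythrodiol it was Slc25a47 (257), Slc25a39 (231), Slc25a5 (228) and Slc25a3 (164), so that Slc25a5 moved from rank 1 to 3. The next were Slc25a1 and Slc25a23, at 88.1 and 84.0 in the control and 115 and 118 in the erythrodiol group, in the reverse order. No replicate spread was at hand to say which neighbours in this order differ. The median level over the 46 members was 10.3 in the control and 12.3 in the erythrodiol group, and 44 members kept their place in the order to within 3 ranks. The exceptions were Slc25a30, which moved from rank 24 to 18, and Slc25a46, from 18 to 23.

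**Figure D2:**
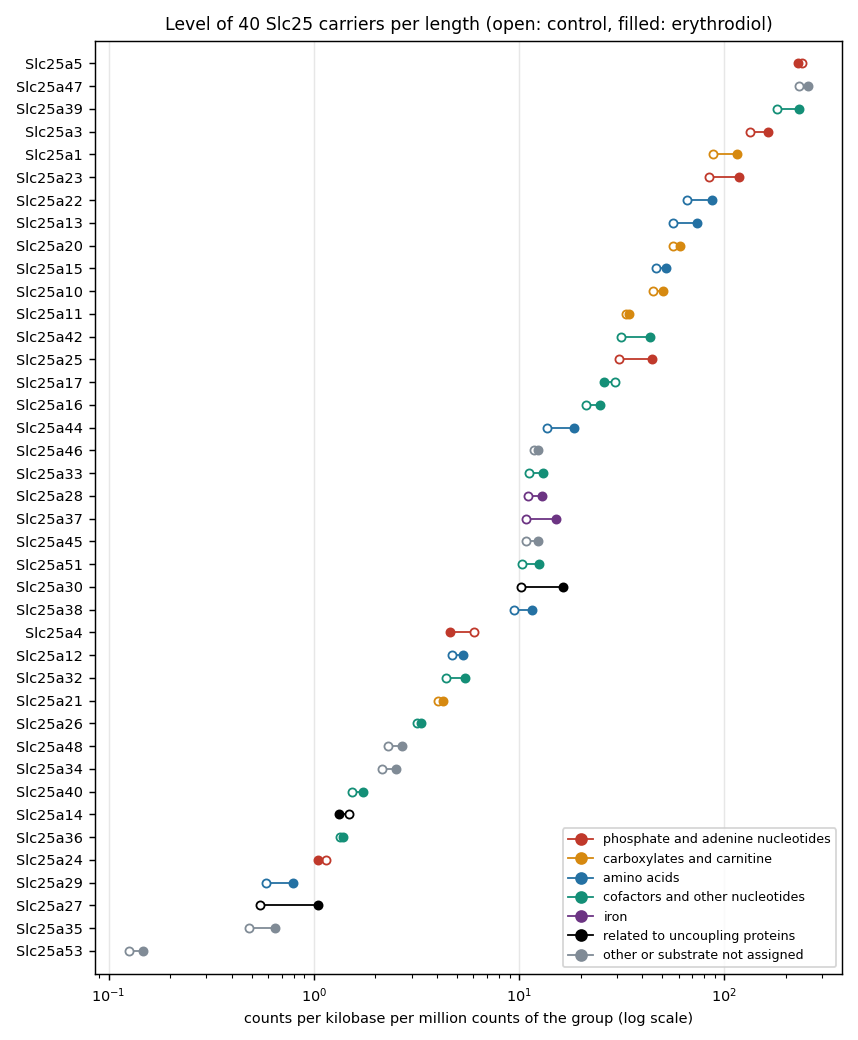
Level of 40 carriers with at least 100 counts, in counts per kilobase and per 1000000 counts of the group on a log axis, with control as open and erythrodiol as filled circles and the colour giving the substrate class. Levels run from 0.126 for Slc25a53 to 239 for Slc25a5 in the control group, and the filled circle lies to the right of the open one for 35 of the 40.

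The carriers of phosphate and adenine nucleotides were split. Slc25a5, the widely expressed ADP/ATP carrier (chrX:36795597-36798808), had 38660 counts in the control and 37514 in the erythrodiol group, a ratio of 0.956 (0.943 to 0.970) and a relative log2 ratio of -0.05. Slc25a4, the ADP/ATP carrier typical of heart and muscle (chr8:46207168-46211062), had 844 and 659 counts, a ratio of 0.770 (0.694 to 0.853) and a relative log2 ratio of -0.33. It was the only kept member lower past the limit on the scale of totals. The phosphate carrier Slc25a3 (chr10:91116574-91124046), which brings in the phosphate for the same ATP synthesis, went the other way, with 24548 and 30440 counts, a ratio of 1.22 (1.20 to 1.24) and a relative log2 ratio of 0.25. Both ADP/ATP carriers were thus lower and their phosphate partner higher in the erythrodiol sum. Relative to genes of like length, however, Slc25a5 lay within the quartiles of all genes, -0.18 and 0.14. The 5 striated muscle markers in the table had 0 to 27 counts each, 41.0 in sum in the control and 11.0 in the erythrodiol group, with Ttn at 27 and 0, Ckm at 3 and 0 and Tnnt3 at 3 and 6, so that muscle transcripts were at or near 0 in both groups.

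The ATP-Mg/phosphate carriers shift the adenine nucleotide pool of the matrix and are switched by cytosolic calcium through EF-hand domains. Slc25a25 had 12140 and 17660 counts, a ratio of 1.43 (1.40 to 1.47) and a relative log2 ratio of 0.32. Slc25a23 (chr17:57043711-57059909) had 34821 and 49792 counts, a ratio of 1.41 (1.39 to 1.43) and a relative log2 ratio of 0.28. Slc25a24, far less abundant in this liver, had 478 and 445 counts, a ratio of 0.918 (0.805 to 1.05), and with a relative log2 ratio of -0.34 was the lowest kept member for its length. The aspartate/glutamate carriers share the EF-hand build, and the 5 EF-hand carriers together, a grouping added after seeing the data, had 70748 and 98362 counts, a ratio of 1.37. In that group 4 of 5 were higher by totals, where 71.2% of all genes were, and the median log2 ratio was 0.38 against 0.16 for all genes. Relative to genes of like length 4 of 5 were higher, where 50.1% of all genes were, and the median was 0.20. Past the limit on that scale 1 was higher and 1 lower, beside 6.15% and 13.5% of all genes. Slc25a41, a relative without that domain whose gene lies 2.1 kb from Slc25a23, was counted 0 and 1 times.

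The 7 kept amino acid carriers were all higher by totals, where 71.2% of all genes were, with a median log2 ratio of 0.38. Relative to genes of like length 6 of the 7 were higher, where 50.1% of all genes were, and the median was 0.22. Citrin, Slc25a13 (chr6:6041218-6217304), exports aspartate for the urea cycle and the malate-aspartate shuttle, and had 21628 and 28541 counts, a ratio of 1.30 (1.28 to 1.32). Its relative aralar, Slc25a12, had 1681 and 1924 counts, a ratio of 1.13 (1.06 to 1.20). At the level per length, citrin exceeded aralar in both groups, 56.6 against 4.73 in the control and 73.6 against 5.34 in the erythrodiol group. The glutamate carrier Slc25a22 (chr7:141429749-141437874) had 21041 and 28213 counts, a ratio of 1.32 (1.30 to 1.35), while the other glutamate carrier, Slc25a18, was nearly unread with 12 and 19 counts. Slc25a44, the carrier of branched-chain amino acids, had 6027 and 8272 counts, a ratio of 1.35 (1.31 to 1.40). The ornithine/citrulline carrier Slc25a15, which links the matrix and cytosolic steps of the urea cycle, had 19924 and 22646 counts, a ratio of 1.12 (1.10 to 1.14), and was the only one of the 7 below genes of its length, at a relative log2 ratio of -0.05. Slc25a29, the basic amino acid carrier, was read only 141 and 195 times, for a ratio of 1.36 (1.09 to 1.71) and a relative log2 ratio of 0.34.

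Among the 5 carboxylate carriers, all higher by totals as were 71.2% of all genes, the citrate carrier had the highest relative log2 ratio and the other 4 lay between -0.07 and 0.04. Slc25a1 (chr16:17925211-17928219), which exports citrate for fatty acid and sterol synthesis, had 18354 and 24353 counts, a ratio of 1.31 (1.28 to 1.33). Its relative log2 ratio of 0.3218 lay just inside the limit of 0.3219, and that of Slc25a25, 0.3222, just past it. The carnitine/acylcarnitine carrier Slc25a20 had 12368 and 13552 counts, a ratio of 1.08 (1.05 to 1.11) and a relative log2 ratio of 0.04. The dicarboxylate carrier Slc25a10 had 22046 and 25080 counts, a ratio of 1.12 (1.10 to 1.14), and the oxoglutarate/malate carrier Slc25a11 had 7085 and 7378, a ratio of 1.03 (0.993 to 1.06) whose interval holds 1. Together with the oxodicarboxylate carrier Slc25a21, with 1289 and 1384 counts and a ratio of 1.06 (0.980 to 1.14), these lay at -0.04 to -0.07 relative to genes of like length.

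Of the 11 carriers of cofactors and other nucleotides, 10 were higher by totals, where 71.2% of all genes were, and 8 were higher than genes of like length, where 50.1% were, with a median relative log2 ratio of 0.034. Slc25a39 (chr11:102402969-102408675), a glutathione carrier, had 35742 and 46205 counts, a ratio of 1.27 (1.26 to 1.29) and a relative log2 ratio of 0.30. Slc25a40, the other glutathione carrier, was much scarcer with 532 and 612 counts, a ratio of 1.13 (1.01 to 1.28) and a relative log2 ratio of 0.03. The coenzyme A carrier Slc25a42 had 12262 and 17236 counts, a ratio of 1.39 (1.35 to 1.42) and a relative log2 ratio of 0.27. Slc25a17, which serves peroxisomes rather than mitochondria, was the only member of the class that was lower (chr15:81318921-81360765): 6034 and 5404 counts gave a ratio of 0.883 (0.851 to 0.916) and a relative log2 ratio of -0.24. Among other carriers of the class, the ratio was 1.18 for Slc25a16, linked to coenzyme A, 1.21 for the NAD carrier Slc25a51, 1.24 for the folate and FAD carrier Slc25a32 and 1.05 for the S-adenosylmethionine carrier Slc25a26. The pyrimidine nucleotide carriers had ratios of 1.18 (Slc25a33, 2580 and 3079 counts) and 1.03 (Slc25a36, 771 and 802 counts), and Slc25a36 lay at -0.21 relative to genes of like length.

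The highest ratios of the family belonged to 2 carriers related to the uncoupling proteins. Slc25a30 (chr14:75757534-75787037) had 2431 and 3976 counts, a ratio of 1.61 (1.53 to 1.70) and a relative log2 ratio of 0.58. Slc25a27 (chr17:43637739-43667214) had 413 and 802 counts, a ratio of 1.91 (1.70 to 2.16) and a relative log2 ratio of 0.64. Per length the level of Slc25a30 was 10.2 in the control and 16.5 in the erythrodiol group, and that of Slc25a27 only 0.550 and 1.05. Slc25a14, the third of this kind, had 278 and 250 counts, a ratio of 0.886 (0.744 to 1.06), with an interval that holds 1. The uncoupling proteins, which carry other symbols, were not among the members: Ucp2 had 7765 and 7821 counts, a ratio of 0.993 (0.962 to 1.02). Ucp1, the uncoupling protein of brown fat, had 5 and 18 counts, and Ucp3 had 4 and 5. Other brown adipocyte markers were Cidea, with 35 and 17 counts, and Elovl3, which is also a liver gene, with 18903 and 18515. Mtch1 and Mtch2, distant relatives in the outer membrane, had ratios of 1.01 (0.976 to 1.04) and 0.969 (0.948 to 0.990).

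Both mitoferrins, which bring iron to the matrix for heme and iron-sulfur clusters, were higher. Slc25a37, the mitoferrin known from erythroid cells, had 5795 and 8184 counts, a ratio of 1.39 (1.35 to 1.44) and a relative log2 ratio of 0.22. Slc25a28, the mitoferrin of other cells, had 1791 and 2128 counts, a ratio of 1.17 (1.099 to 1.248) and a relative log2 ratio of 0.24. Slc25a38, the glycine carrier that feeds heme synthesis, had 1909 and 2354 counts, a ratio of 1.22 (1.14 to 1.29). The 6 erythroid markers had 127343 counts in the control and 93184 in the erythrodiol group. Of the 5 with at least 100 counts, 4 were lower, where 28.8% of all genes were, with ratios from 0.491 for Hbb-bt to 1.03 for Alas2. Relative to genes of like length 4 of the 5 were lower, where 49.9% of all genes were. The 5 leukocyte markers summed to 9830 and 9327 counts, with ratios from 0.439 for S100a8 to 1.14 for Cd3e. By totals 3 of the 5 were higher, where 71.2% of all genes were, and relative to genes of like length 3 of the 5, where 50.1% were. The part of these cells in the carriers' values was not tested.

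The hepatocyte carrier Slc25a47 (chr12:108849833-108856815) had the most counts of the family, 46043 and 51656, a ratio of 1.11 (1.09 to 1.12) and a relative log2 ratio of 0.09. Slc25a29, whose gene lies 14.0 kb away, had 336 counts in the groups together. Slc25a46, an outer membrane protein that shapes mitochondria, had 5260 and 5555 counts, a ratio of 1.04 (1.002 to 1.081) and a relative log2 ratio of -0.16. Members with no transport substrate named here had ratios of 1.13 (Slc25a45, 2530 and 2908 counts), 1.17 (Slc25a48, 468 and 557), 1.16 (Slc25a34, 720 and 851), 1.34 (Slc25a35, 113 and 154) and 1.16 (Slc25a53, 62 and 73). Members under 100 counts were Slc25a2, an ornithine carrier, with 17 and 23 counts, Slc25a31, the germ cell ADP/ATP carrier, with 25 and 13, Slc25a43 with 23 and 34, and Slc25a18 and Slc25a41 given above. Their counts do not allow a direction.

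**Figure D3:**
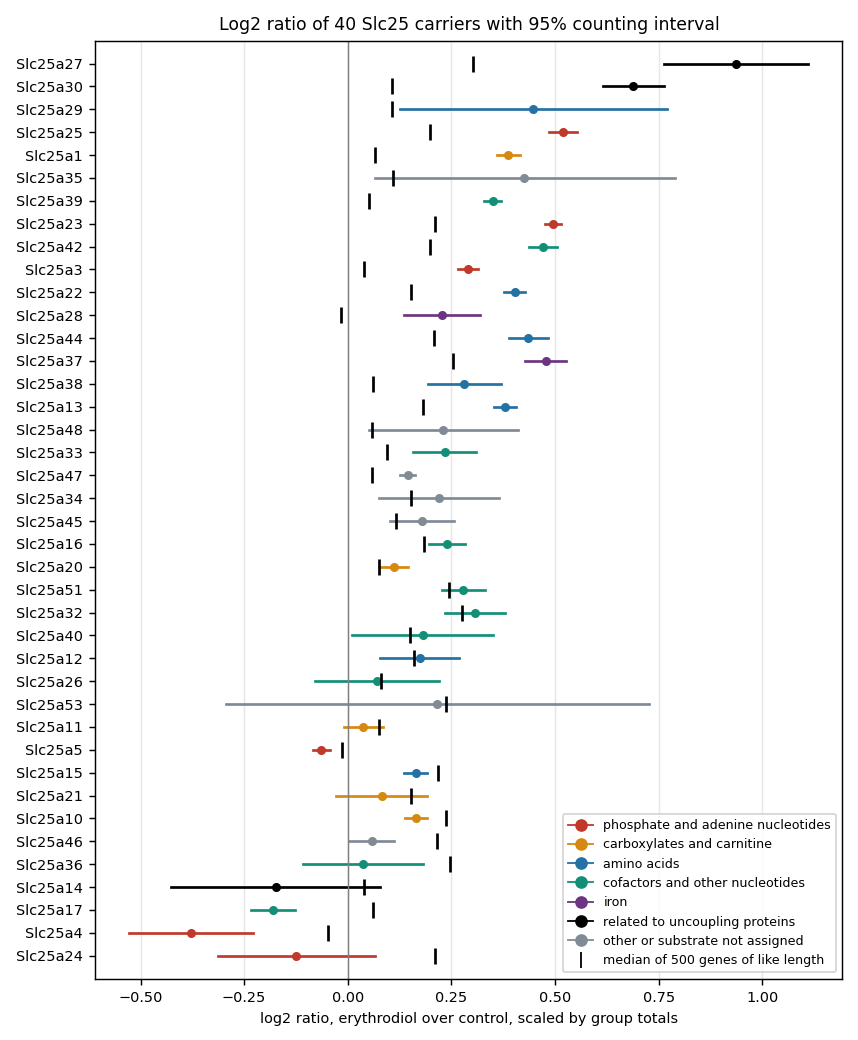
Log2 ratio of erythrodiol over control scaled by group totals for 40 carriers, with its 95% counting interval (bar) and, as a black tick, the median log2 ratio of the 500 genes of like length. Carriers are ordered by the signed distance of the point from the tick and coloured by substrate class; 27 points lie to the right of their tick, from Slc25a27 at the top, and 13 to the left, down to Slc25a24.

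The enzymes that work with the carriers were given for comparison, from a list of shuttle and partner enzymes. Of its 22 genes, 19 were higher and 3 lower by totals, beside 71.2% and 28.8% of all genes, and 10 were higher and 1 lower past a log2 ratio of 0.32, beside 24.4% and 8.89%. Relative to genes of like length 17 were higher and 5 lower, beside 50.1% and 49.9%, and past the limit 2 were higher and 2 lower, beside 6.15% and 13.5%. The median relative log2 ratio was 0.14, compared with 0.064 for the carriers. Values ran from 0.610 (0.603 to 0.616) for Mdh1 to 1.57 (1.56 to 1.58) for Pck1, the cytosolic enzyme that commits oxaloacetate to gluconeogenesis. In the malate-aspartate shuttle, ratios were 1.34 for the cytosolic transaminase Got1, 1.28 for its mitochondrial counterpart Got2 and 1.15 for the mitochondrial malate dehydrogenase Mdh2, beside 1.30 for citrin and 1.03 for the oxoglutarate/malate carrier. The cytosolic malate dehydrogenase Mdh1 stood against them with 84311 and 52164 counts.

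In the urea cycle, beside 1.12 for the ornithine/citrulline carrier, ratios were 1.28 for the matrix enzyme Cps1 and 0.807 for the matrix enzyme Otc, and 1.37, 1.14 and 0.916 for the cytosolic Ass1, Asl and Arg1. Around citrate export, citrate synthase (Cs) had a ratio of 1.23, the ATP citrate lyase Acly 1.34 and the malic enzyme Me1 1.38, beside 1.31 for Slc25a1. Around the acylcarnitine carrier, with its 1.08, the palmitoyltransferases Cpt1a and Cpt2 had ratios of 1.35 and 1.20 and the acetyltransferase Crat 1.23. Among the transcripts named, ratios lay on both sides of 1 in the urea cycle and the malate-aspartate shuttle. Those named for the other 2 routes were above 1, as were 71.2% of all genes by totals. Mdh1, with a ratio of 0.610, was named only for the shuttle, so this describes the genes chosen and not whole routes.

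Other transport systems of the mitochondrion had lower medians relative to genes of like length than the carriers; these differences between lists were not tested. Of 17 kept transporters of the inner membrane outside the family, 14 were higher and 3 lower by totals, beside 71.2% and 28.8% of all genes, 10 were higher relative to genes of like length, beside 50.1%, and the median relative log2 ratio was 0.04. The highest by totals was Mcu, the pore of the calcium uniporter, with 2074 and 2902 counts and a ratio of 1.38 (1.30 to 1.46). The lowest by totals was Mpc1 of the pyruvate carrier, with 27970 and 23376 counts and a ratio of 0.824 (0.809 to 0.838), beside 0.869 for its partner Mpc2. Relative to genes of like length Mpc1 lay at a log2 ratio of -0.13 and Mpc2 at 0.00. On that scale the list ran from -0.42 for Ghitm to 0.39 for Smdt1. Among 20 outer membrane channels and protein import components, 7 were higher and 13 lower by totals, beside 71.2% and 28.8% of all genes, 0 were higher and 4 lower past the limit, beside 24.4% and 8.89%, and the median relative log2 ratio was -0.10. Extremes were Timm29 at 1.18 (1.14 to 1.23) and Timm8b at 0.593 (0.567 to 0.619). Timm22, the pore of the complex that inserts the carriers into the inner membrane, had 1036 and 823 counts, a ratio of 0.783 (0.714 to 0.859) and a relative log2 ratio of -0.50. Its small chaperones in the intermembrane space were not alike: Timm10 had a ratio of 0.634, and Timm9 0.967.

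**Figure D4:**
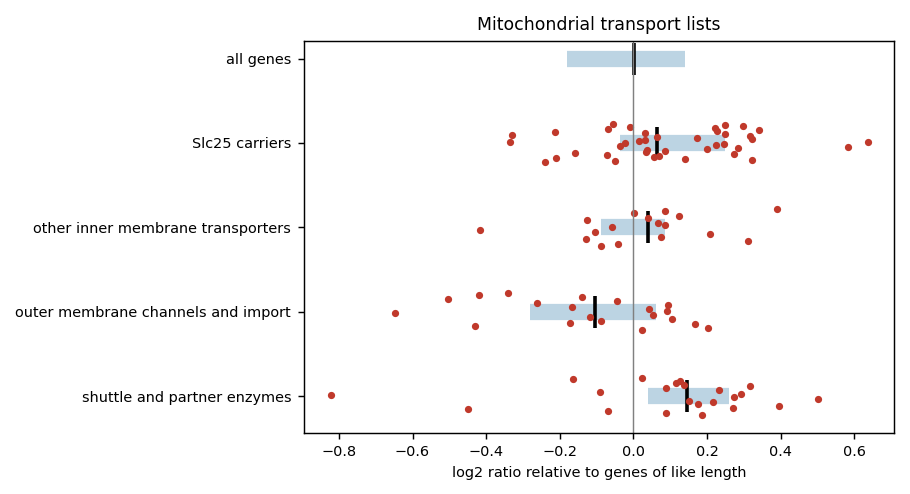
Log2 ratio relative to genes of like length for all genes, the carriers and 3 comparison lists; red points are genes (40 of the 41 carriers) with at least 100 counts, jittered vertically, black lines are medians and pale bars span the quartiles. Medians are 0.00 for all genes, 0.064 for the carriers, 0.04 for the other inner membrane transporters, -0.10 for the outer membrane channels and import and 0.14 for the shuttle and partner enzymes.

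Assembled transcripts that the authors deposited as unannotated were assigned to 18 of the 41 kept carriers (43.9%), compared with 35.8% of all genes at that minimum, and to 17 of the 36 carriers with at least 1000 counts (47.2% against 40.3%). They numbered 26, with at most 3 per gene, as for Slc25a37 and Slc25a38. Of the 5 carriers with the highest control level per length, Slc25a39 had 1 and the other 4 had 0. The table of these transcripts gives no value per group, so that they could not be compared between diets.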

How the data were processed

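Liver polyA RNA of 14 libraries, 7 per group by the labels, was sequenced by the authors from both fragment ends. Per the labels the authors used HISAT, StringTie, Cufflinks, GATK, Bowtie2 and RSEM; versions are not given in the sources used here. The authors deposited 1 RSEM expected count per gene and group, the unnormalized sum over the libraries, on GRCm38. Deposited ratio, p-value and q-value columns hold the authors' own comparison (DEGseq) and were not used. The authors also deposited, per library, the count of clean reads, the percent mapped to genes and the percent mapped to 1 gene. RSEM divides reads that fit several genes, and 6 members had fractional counts (Slc25a11, Slc25a21, Slc25a25, Slc25a37, Slc25a42 and Slc25a51), whose values are less certain for that reason.

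Sums were scaled by group totals, and a gene was kept if its 2 sums reached 100 counts together. Like length means the 500 genes nearest in rank of the deposited length, taken as transcript length (250 on each side where present), and like length and GC used GENCODE M21 transcripts for GC, which covered 98.7% of the kept genes. Ratios have 95% exact (Clopper-Pearson) binomial intervals, and a call means past a log2 ratio of 0.32. Read depth of 34856340 to 55244294 clean reads per library sets the counting error; intervals cover counting error only. Clean reads and the percent mapped to genes were compared by exact two-sided permutation tests of the difference of means, with libraries of pooled RNA as the units. Motifs were searched on both strands.

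Named with values were the members, except 1 carrier that enters the counts but is not reported here, Ucp and Mtch genes, and the highest and lowest gene by ratio of every other list among its reported genes (at least 100 counts where any reached that); further partner, import and marker genes were named after their values were seen. The members and lists were chosen with earlier results of these data known. A planned protein comparison was not made, since no protein sequences were used here. Scalings, count minimums, pseudocounts, neighbourhood sizes and fold limits were varied. The scripts were tested on simulated data. Computation used scipy 1.17.1, pandas 2.3.3 and numpy 2.4.6 under Python 3.11.15, and figures were drawn with matplotlib 3.10.9.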

Additional observations from a re-analysis of the deposited data

Results flagged for a closer look

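The control library of replicate 3 had 64.33% of its reads mapped to genes, and its gap to the nearest control library was 0.588 of the range of the 7 control libraries, above Dixon's 95% limit. Chance flags about 1 in 20 groups. The carriers' counts are sums that hold this library and could not be given without it.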

How the results depend on the processing

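On the scale of totals the median log2 ratio of the carriers (0.23) kept its sign under every scaling tried. It was 0.066 relative to the median of all genes, 0.064 relative to genes of like length, 0.052 with upper quartile scaling and 0.070 with a trimmed mean. In the same order, the members lower numbered 12, 13, 15 and 12 (5 by totals), those higher than a log2 ratio of 0.32 numbered 4, 4, 3 and 4 (13 by totals), and those lower past it 3, 2, 3 and 3 (1 by totals). All genes have a median log2 ratio of 0.16 by totals, the shift these scalings remove. By totals, 2 members were lower past that limit with a minimum of 10 counts, and 2 with no minimum and a pseudocount of 1, while 3 members were lower at all with a minimum of 1000. At 1.5-fold, 2 were higher and 0 lower, and at 2-fold 0 and 0. Relative to genes of like length, 6 were higher past that limit with the 1000 genes nearest in length, and 8 with a minimum of 10 counts. Only 1 was lower past it when level or GC was matched too or with a minimum of 1000 counts. At 1.5-fold, 1 was higher and 0 lower, and at 2-fold 0 and 0. Over the carriers one by one, 407 values stayed within their counting interval, 157 moved outside it, and of values past the limit 0 changed sign. Leaving out libraries, the difference in clean reads (1123193, erythrodiol minus control) ranged from -861550 without control replicate 3 to 2536442 without control replicate 4, and was -125904 without control replicate 1. The difference in the percent mapped to genes (-0.383 points, exact permutation p = 0.846) ranged from -2.12 without control replicate 3 (exact permutation p = 0.0490) to 0.726 without control replicate 1. The cause of these moves was not tested.

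With the replicate number as a block, the differences were the same, 1123193 clean reads (exact sign-flip permutation p = 0.750) and -0.383 points (p = 0.766, exact sign-flip permutation). That number is only the running number in the titles, and the labels pair no control library with an erythrodiol library. Such blocks could not be used for the carriers in any case, because their counts are sums over libraries. Depth limits the 5 members under 100 counts.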
